A study of Mus musculus with 6 samples.

Results

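Genes of blood clotting and of clot dissolution were examined by RNA sequencing of mouse liver, with 3 hepatic FTO knockout libraries and 3 wild type control libraries. FTO removes the methyl mark of N6-methyladenosine from RNA. The genes were listed by name, as clotting factors, anticoagulants, kinin genes and fibrinolysis genes. No cutoff on their values was used, but earlier results of these data were known when they were chosen. Of 37 listed genes, 36 were found among the 25690 rows of the deposited FPKM table (FPKM: fragments scaled for transcript length and for the number of mapped fragments). The sources used here do not give strain, age, sex or the promoter that drives the deletion. The labels name no treatment or second allele, and the groups differ in the labels only by genotype. Whether each library stands for its own animal is not stated either. The p-values therefore rest on variation among these 6 samples alone, part or all of which may be technical.

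Most clotting factors are plasma proteins that hepatocytes make and secrete as inactive precursors. Proteases activate one another in turn until thrombin, made from prothrombin, cuts fibrinogen to fibrin. Several of these proteins need a vitamin K-dependent carboxylation in the liver before they can bind membranes. Endothelial cells supply factor VIII, von Willebrand factor, thrombomodulin and tissue plasminogen activator, and plasmin, made from plasminogen, dissolves the clot.

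All 3 fibrinogen chain genes, the factor genes F10 and F11, and Proz and Serpina10, which encode an inhibitor system for factor Xa, had higher values in every knockout library than in any wild type library. Ggcx, the vitamin K-dependent carboxylase gene, and Hrg, the histidine-rich glycoprotein gene, had lower values in every knockout library. None of these 9 differences passed limma's test across all genes at a Benjamini-Hochberg adjusted p under 0.05, the threshold for a call. Groups that did not overlap, in either direction, were held by 9 of the 32 members tested, against 24.5% of all genes tested.

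The sequences shown first are the 250 bases before the annotated start of the 6 genes that the results turn on most: the 3 fibrinogen chains, which lie side by side on chromosome 3, and F10, Proz and F11 on chromosome 8. They were taken from RefSeq on GRCm38.p6 and run 5′ to 3′ on the strand of the gene. Capitals mark every match to 4 motifs on either strand: the HNF1 half-site GTTAAT, the HNF4 core AAGGTCA, the C/EBP core TTGCNNAA and the interleukin-6 response element CTGGGAA. No 2 matches overlap in these 6 sequences.
Fga, chr3:83025903-83026152, plus strand: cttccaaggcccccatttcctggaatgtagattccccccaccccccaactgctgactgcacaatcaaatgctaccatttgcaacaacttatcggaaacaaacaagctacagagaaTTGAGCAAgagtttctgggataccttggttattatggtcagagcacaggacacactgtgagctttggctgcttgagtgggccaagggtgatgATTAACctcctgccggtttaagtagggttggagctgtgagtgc
Fgb, chr3:83049864-83050113, minus strand: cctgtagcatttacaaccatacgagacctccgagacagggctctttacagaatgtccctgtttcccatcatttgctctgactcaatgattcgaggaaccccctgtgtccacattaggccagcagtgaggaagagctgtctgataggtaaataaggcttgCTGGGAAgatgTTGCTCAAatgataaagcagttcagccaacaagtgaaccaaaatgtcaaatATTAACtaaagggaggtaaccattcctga
Fgg, chr3:83007474-83007723, plus strand: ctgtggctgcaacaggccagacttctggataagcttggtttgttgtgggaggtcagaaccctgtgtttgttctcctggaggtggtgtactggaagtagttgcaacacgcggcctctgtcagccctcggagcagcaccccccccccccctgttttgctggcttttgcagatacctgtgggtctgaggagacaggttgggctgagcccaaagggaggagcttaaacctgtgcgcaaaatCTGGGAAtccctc
F10, chr8:13037058-13037307, plus strand: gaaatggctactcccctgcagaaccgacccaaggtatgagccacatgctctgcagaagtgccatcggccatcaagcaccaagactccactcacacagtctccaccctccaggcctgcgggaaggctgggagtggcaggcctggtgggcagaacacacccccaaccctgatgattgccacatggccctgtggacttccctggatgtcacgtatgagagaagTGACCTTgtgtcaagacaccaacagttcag
Proz, chr8:13060658-13060907, plus strand: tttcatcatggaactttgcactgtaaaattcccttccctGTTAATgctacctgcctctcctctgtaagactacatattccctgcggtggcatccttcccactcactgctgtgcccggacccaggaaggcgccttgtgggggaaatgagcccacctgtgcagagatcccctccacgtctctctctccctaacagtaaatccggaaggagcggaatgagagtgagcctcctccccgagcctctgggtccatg
F11, chr8:45262032-45262281, minus strand: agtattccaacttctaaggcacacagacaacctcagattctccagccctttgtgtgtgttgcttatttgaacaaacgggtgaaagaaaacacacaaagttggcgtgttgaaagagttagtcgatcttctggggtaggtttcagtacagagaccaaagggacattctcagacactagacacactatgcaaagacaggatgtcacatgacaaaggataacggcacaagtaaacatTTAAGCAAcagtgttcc

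The HNF1 half-site ended 38 bases before the RefSeq start in Fga and 24 bases before it in Fgb. In the GENCODE M21 annotation, the source of the gene positions given below, Fga begins at 83026076. The last part of its sequence, with the HNF1 half-site, therefore lies inside that gene span. The interleukin-6 element was held by Fgb and Fgg. Fga and Fgb also held the C/EBP core. F10 held the HNF4 core 24 to 30 bases before its start, F11 the C/EBP core 10 to 17 bases before its start, and Proz a more distant HNF1 half-site. In the table of RefSeq promoters, 28 of the 36 members matched, with 30 promoters. Chromosome 18, where Proc lies, was left out for the members but not for the set of all promoters. The HNF1 half-site was in 6 of these 30 (20.0%), against 6.43% of all 32851 promoters of the same length, and the C/EBP core was in 8 (26.7%), against 9.56%. The HNF4 core was in 2 of 30 (6.67%), against 4.08%, and the interleukin-6 element in 4 (13.3%), against 9.10%. The letters TATAAA, also searched, were in 1 of 30 (3.33%), against 12.4%. Matches were not confined to members with higher knockout values. Ggcx and Hrg, with lower values, also held the C/EBP core, as did F9, Kng2 and Habp2, whose groups overlapped. Among other members with overlapping groups, F13b, Habp2 and Hgfac held the HNF1 half-site, F7 the HNF4 core, and F9 and Tfpi the interleukin-6 element. All these matches describe the letters and show no binding.

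Before the members, the libraries themselves were compared. Depth, inferred from the FPKM value of single fragments, was 34140000 to 42530000 fragments per library. Only inferred values inside a fixed window entered these medians, so the depths are rough. For knockout replicate 3, the deepest library, the central range of the inferred values was 28410000 to 43260000. Fto, the targeted gene, fell to 1.79, 3.83 and 2.66 FPKM in knockout replicates 1, 2 and 3, against 6.67, 6.02 and 6.40 FPKM in wild type replicates 1, 2 and 3 (limma adjusted p 0.0386, with 0.00940 to 0.146 under other settings). The log2 difference of Fto was -1.004, and its call was lost without knockout replicate 1, knockout replicate 3, wild type replicate 1 or wild type replicate 2, with adjusted p-values of 0.0662, 0.146, 0.0804 and 0.113, and also when low genes were kept in (0.0975) or libraries were scaled to equal sums outside the mitochondrial genome (0.0613). Wild type replicate 3 was the most distant library of its group. Over 784 genes at 100 to 1000 FPKM, its median absolute log2 difference was 0.420 from wild type replicate 1 and 0.291 from wild type replicate 2, while those libraries differed by 0.140 and the knockout libraries by 0.117 to 0.187. The 19 hepatocyte marker genes without Alb, which is listed at 0 in a library of each group, summed to 65680 to 68370 FPKM in knockout and to 59610 to 85930 FPKM in wild type, so the labelled tissue showed its markers in all 6 libraries. In bulk tissue, fewer cells of a type and less RNA per cell cannot be told apart.

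The members spanned more than 5 orders of magnitude on the FPKM scale. By their mean over the 6 libraries, 17 members stood at 100 FPKM or more, 10 between 10 and 100 FPKM, 5 between 1 and 10 FPKM and 4 under 1 FPKM. The fibrinogen chain genes were the most abundant, at ranks 44 (Fgb), 54 (Fgg) and 75 (Fga) of all rows, followed by Kng1, the kininogen gene, at rank 88 and by Serpinc1, the antithrombin gene, at rank 119. Genes at the lower end included ones with a source outside the hepatocyte, such as F8, Vwf, Thbd and Plat. Ggcx, the carboxylase gene, was also below 10 FPKM, at a mean of 6.44 FPKM. The 36 members held 1.67%, 1.84% and 2.39% of the FPKM sum outside the mitochondrial genome in knockout replicates 1, 2 and 3, against 1.76%, 1.67% and 1.13% in wild type replicates 1, 2 and 3. The highest share was that of knockout replicate 3 and the lowest that of wild type replicate 3. Summed FPKM of the members was 11500, 11900 and 15340 in knockout replicates 1, 2 and 3. It was 10370, 10860 and 9330 in wild type replicates 1, 2 and 3. The shares also depend on the library sums. Over all rows these were 1076602 FPKM in wild type replicate 3 and 843847 to 902782 FPKM in the others. Alb adds 0 to the sums of knockout replicate 3 and wild type replicate 1.

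**Figure D1:**
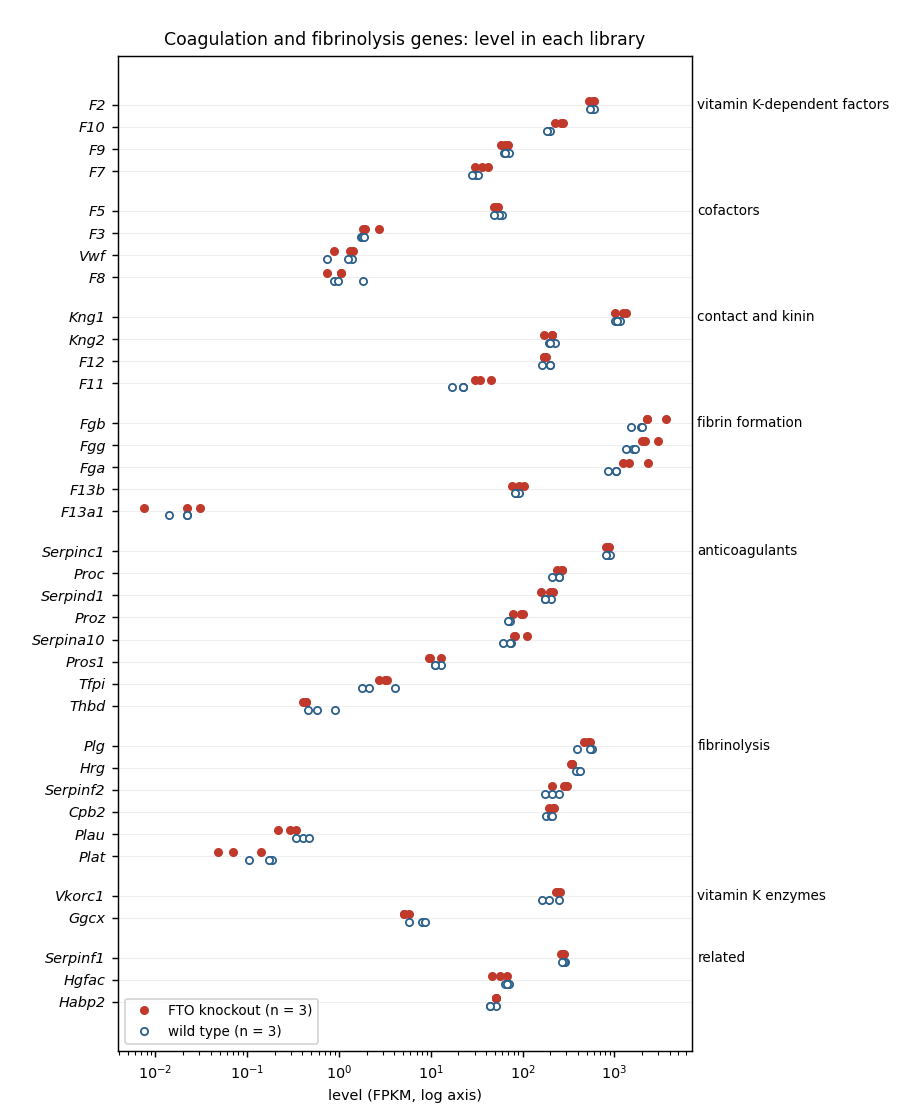
Level of 36 coagulation and fibrinolysis genes in FPKM (log axis) in each of 3 FTO knockout libraries (filled, upper row of each gene) and 3 wild type libraries (open, lower row), grouped by role. Most genes overlap between the groups; the fibrinogen genes, F10, F11, Proz and Serpina10 lie to the right in knockout, and Hrg, Ggcx, Thbd and Plau lie to the left.

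Of the 36 members, 32 averaged 1 FPKM or more across all libraries and were tested with limma on log2(FPKM + 1), with p-values adjusted over all 10405 genes tested. Of these 32, 0 were called higher, against 1.11% of all genes tested, and 0 were called lower, against 1.65% (2.76% in either direction). With p under 0.05 before adjustment, 6 members were higher (18.8%, against 8.65% of all genes) and 1 was lower (3.12%, against 10%). The libraries of the groups did not overlap for 7 higher members (21.9%, against 11.5% of all genes) and 2 lower members (6.25%, against 13%), that is 9 of 32 against 24.5%. The log2 difference was above 0 for 21 members and below 0 for 11, against 49.7% of all genes above 0. Its median was 0.07 over the members and -0.0018 over all genes. Without wild type replicate 3, 10 members were separate and higher, against 22.7% of all genes, and 6 were separate and lower, against 19.8%. Without knockout replicate 1, 11 were separate and higher, against 17.1%, and 2 were lower, against 15.1%. After scaling to equal sums outside the mitochondrial genome, 6 were separate and higher, against 11.9% of all genes, and 0 were lower, against 7.7%. These shares describe the list, and no test of the list was made.

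On the log2(FPKM + 1) scale the differences ran from -0.42 (Ggcx) to 0.80 (F11), with standard errors of 0.11 to 0.24. For 17 of the 32 members the 95% interval of the difference lay wholly within 0.5 of zero, which bounds those differences without showing equality. When limma weighted the libraries by their own variability, 3 members were called higher (F10, F11 and Fgg) and 1 lower (Ggcx), while calls among all genes also grew, to 727 higher and 739 lower, against 115 and 172 without weights.

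**Figure D2:**
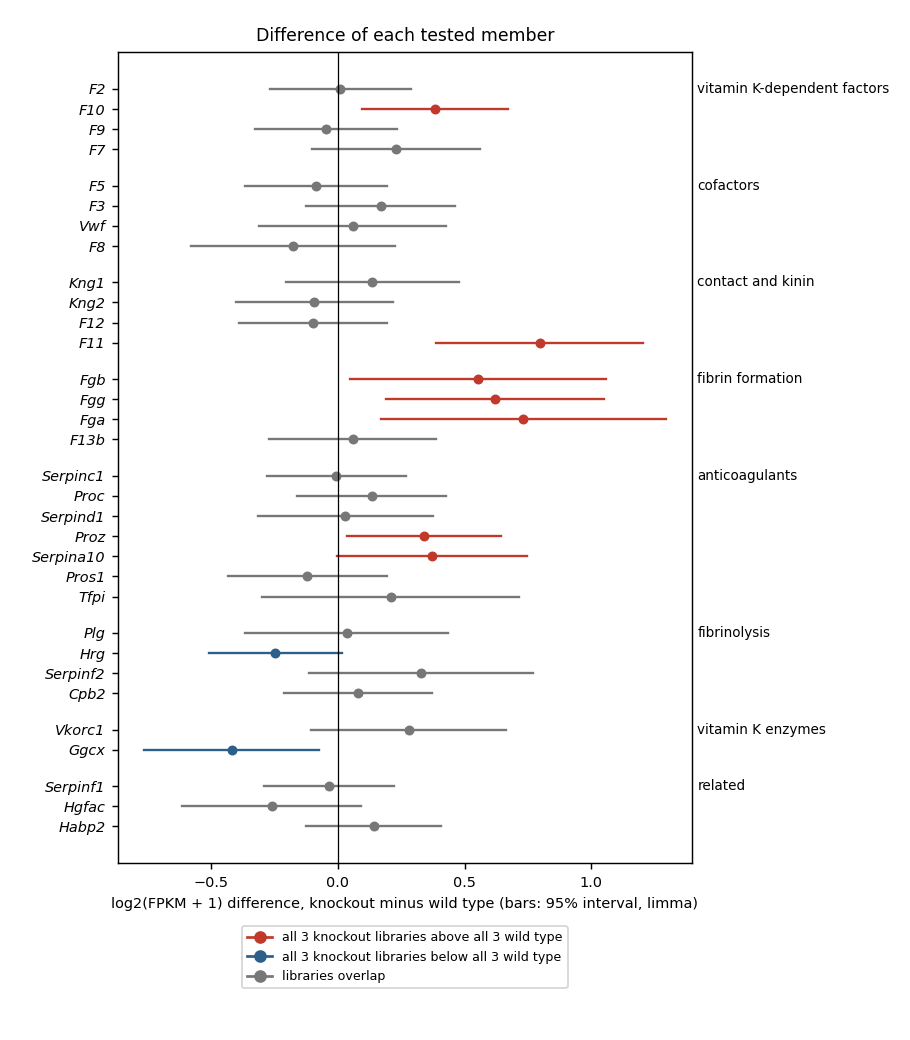
Log2(FPKM + 1) difference, knockout minus wild type, of the 32 tested members, with 95% intervals from limma, grouped by role. The largest positive difference is that of F11 (0.80), the fibrinogen chains lie at 0.55 to 0.73, and most intervals span 0.

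The precursor of thrombin and the other vitamin K-dependent procoagulant factors came first among the roles. F2, the prothrombin gene, had 533, 586 and 599 FPKM in knockout replicates 1, 2 and 3, against 569, 594 and 543 FPKM in wild type replicates 1, 2 and 3. The groups overlapped almost fully, with a log2 difference of 0.01 and a 95% interval of -0.27 to 0.29. F10, which encodes the protease that activates prothrombin, had 226, 261 and 273 FPKM in knockout replicates 1, 2 and 3, against 196, 199 and 185 FPKM in wild type replicates 1, 2 and 3. Every knockout library lay above every wild type library, at 1.31 times the wild type mean. The log2 difference was 0.38 with an SE of 0.12, and limma's adjusted p was 0.159, with 0.0391 to 0.399 under other settings.

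F7, the initiator protease gene of the tissue factor pathway, had 30.5, 42.2 and 36.1 FPKM in knockout replicates 1, 2 and 3, against 30.8, 32.8 and 28.1 FPKM in wild type replicates 1, 2 and 3. Knockout replicate 1 lay within the wild type range, so the groups overlapped. F9, the gene of the factor that is lost in hemophilia B, averaged 64.1 ± 6.11 FPKM in knockout and 66.1 ± 3.92 FPKM in wild type (SD, n = 3 each), with a 95% interval of -0.33 to 0.23 for its log2 difference. F7 (13026034 to 13035809), F10 (13037308 to 13056676) and Proz (13060914 to 13076026) follow one another on the plus strand of chromosome 8 in mm10. They lie 78.2 to 78.3 Mb before Fto on the same chromosome, and F11 lies 46.1 Mb before it. Of the 4 tested members on chromosome 8, F10, Proz and F11 had separate higher groups and F7 did not. Among all genes tested, 11.5% had separate higher groups. After scaling to equal sums outside the mitochondrial genome, the groups of F10 and Proz overlapped and those of F11 did not. A link to the position of Fto was not tested.

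Among cofactors, F5, the gene of the protein that speeds thrombin formation by factor Xa, was by far the most abundant. Its exons overlap Gm16548 on the opposite strand, at a mean of 9.29 FPKM, and the sources used here do not say whether counting used strand. The level of F5 was 48.4, 54.0 and 50.1 FPKM in knockout replicates 1, 2 and 3, against 59.2, 54.8 and 48.3 FPKM in wild type replicates 1, 2 and 3. The groups overlapped, and the log2 difference was -0.09 with a 95% interval of -0.37 to 0.19. F3, the tissue factor gene, averaged 2.16 ± 0.477 FPKM in knockout and 1.79 ± 0.0678 FPKM in wild type (SD, n = 3 each). F8, which encodes the cofactor of factor IX, averaged 0.946 ± 0.181 FPKM in knockout and 1.23 ± 0.530 FPKM in wild type (SD, n = 3 each). Vwf, which encodes the carrier of factor VIII in plasma, averaged 1.203 ± 0.284 FPKM in knockout and 1.12 ± 0.342 FPKM in wild type (SD, n = 3 each). All 4 cofactor genes had overlapping groups and none had an unadjusted p under 0.05.

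F11 carried the largest difference of all members. It encodes factor XI, which activates factor IX and is made in hepatocytes (chromosome 8, 45241174 to 45262031, minus strand, mm10). F11 had 30.4, 45.3 and 34.3 FPKM in knockout replicates 1, 2 and 3, against 22.3, 22.3 and 17.1 FPKM in wild type replicates 1, 2 and 3. The groups did not overlap, with the knockout mean at 1.78 times the wild type mean and knockout replicate 2 the highest. The log2 difference was 0.80 with an SE of 0.18 and an unadjusted limma p of 0.00214. Its adjusted p of 0.0614 was the smallest among the members and stood at 0.0149 to 0.179 under the other settings, past the threshold only with library weights. Without wild type replicate 3, the lowest library, the log2 difference was 0.68.

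The other contact and kinin genes had overlapping groups. F12, which starts the contact pathway, averaged 174 ± 7.09 FPKM in knockout and 187 ± 19.3 FPKM in wild type (SD, n = 3 each). Kng1, the source of bradykinin, had 1008, 1328 and 1246 FPKM in knockout replicates 1, 2 and 3, against 1027, 1152 and 1063 FPKM in wild type replicates 1, 2 and 3. Its paralog Kng2 averaged 195 ± 21.2 FPKM in knockout and 207 ± 15.8 FPKM in wild type (SD, n = 3 each). Kng1 and Kng2 are close copies, and the sources used here do not say how reads that fit both were assigned, so their values are uncertain. The GENCODE M21 identifier of Klkb1, the plasma kallikrein gene, matched no row used here, so Klkb1 has no value. A row for Gm45753, a gene model at 45269671 to 45308466 on chromosome 8 that overlaps the span of Klkb1, had 30.2, 40.1 and 36.9 FPKM in knockout replicates 1, 2 and 3, against 41.3, 36.99 and 26.1 FPKM in wild type replicates 1, 2 and 3. Those groups overlapped. The table's own annotation release is not known, so this row may stand for Klkb1 under an older gene model, and it was not counted among the members.

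Fga, Fgb and Fgg encode the 3 chains of fibrinogen, lie within chromosome 3, 83007724 to 83049863, and are the genes whose promoters are shown above. Fga had 1447, 1237 and 2353 FPKM in knockout replicates 1, 2 and 3, against 1049, 1033 and 849 FPKM in wild type replicates 1, 2 and 3. Fgb had 2289, 2247 and 3615 FPKM in knockout replicates 1, 2 and 3, against 1929, 2000.2 and 1529 FPKM in wild type replicates 1, 2 and 3. Fgg had 2169.8, 2020.3 and 3018 FPKM in knockout replicates 1, 2 and 3, against 1602, 1675 and 1357 FPKM in wild type replicates 1, 2 and 3. For each chain, every knockout library lay above every wild type library, knockout replicate 3 was the highest and wild type replicate 3 the lowest.

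Relative to the wild type means, the knockout means were 1.72 times as high for Fga, 1.49 times for Fgb and 1.56 times for Fgg. The log2 differences were 0.73 with an SE of 0.24 for Fga, 0.55 with an SE of 0.22 for Fgb and 0.62 with an SE of 0.19 for Fgg. Limma's adjusted p-values were 0.164 for Fga, 0.230 for Fgb and 0.135 for Fgg, so none was called. Without knockout replicate 3 the log2 differences were 0.46, 0.33 and 0.44 for Fga, Fgb and Fgg, and without wild type replicate 3 they were 0.63, 0.43 and 0.53. The spread within knockout was wide, with an SD of 593 FPKM for Fga against 111 FPKM in wild type.

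The ratios between the chains within a library were also compared, since a scaling of the library does not move these. The ratio of Fga to Fgb was 0.632, 0.550 and 0.651 in knockout replicates 1, 2 and 3, against 0.544, 0.517 and 0.555 in wild type replicates 1, 2 and 3. The ratio of Fgg to Fgb was 0.948, 0.899 and 0.835 in knockout replicates 1, 2 and 3, against 0.831, 0.838 and 0.887 in wild type replicates 1, 2 and 3. Both sets of ratios overlapped between the groups. Exact two-sided permutation tests gave p = 0.200 for Fga to Fgb and p = 0.300 for Fgg to Fgb, where 3 against 3 libraries cannot go below 0.1.

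Fibrin is cross-linked by factor XIII, whose subunits had very different levels here. F13b, the carrier subunit gene, averaged 90.7 ± 14.1 FPKM in knockout and 86.5 ± 4.82 FPKM in wild type (SD, n = 3 each). F13a1, the catalytic subunit gene, which macrophages and megakaryocytes express, had 0.0223, 0.00757 and 0.0302 FPKM in knockout replicates 1, 2 and 3, against 0.0223, 0.0141 and 0.0221 FPKM in wild type replicates 1, 2 and 3. That is about 1 to 5 fragments per library at the inferred depth, so no difference was detectable for F13a1. The platelet glycoprotein gene Gp6 was at 0 in all 6 libraries, and 8 of 15 platelet marker genes had a mean under 0.1 FPKM.

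Acute phase genes are given beside fibrinogen, since the fibrinogen genes belong to that class of liver genes that respond to interleukin-6. The list held 18 genes apart from fibrinogen. It included Il6ra, Il6st and Socs3, which are genes of interleukin-6 signalling and not of acute phase plasma proteins. Of these 18 genes, 18 had a log2 difference above 0, against 49.7% of all genes tested, with a median of 0.47. Non-overlapping higher groups were held by 6, Socs3 among them (33.3%, against 11.5% of all genes). Limma called 0, and 6, Socs3 and Il6ra among them, were higher at an unadjusted p under 0.05 (33.3%, against 8.65%). The 35 ribosomal protein genes also all lay above 0, with a median of 0.40, and 45.7% had separate higher groups. Socs3, the feedback inhibitor gene of the interleukin-6 pathway, had 5.15, 3.26 and 4.82 FPKM in knockout replicates 1, 2 and 3, against 2.53, 1.51 and 1.13 FPKM in wild type replicates 1, 2 and 3 (limma adjusted p 0.0560, with 0.0101 to 0.203 under other settings). Crp, the C-reactive protein gene, averaged 1.44 times its wild type mean, with a limma adjusted p of 0.102 (0.0222 to 0.2925 under other settings). The groups of Lbp, Hpx, Itih3 and Orm1 also did not overlap. For Lbp limma's adjusted p was 0.143, with 0.0279 to 0.362 under other settings. The groups of the other listed genes overlapped, among them Saa1, Saa2, Saa3, Hp and Lcn2. The summed FPKM of 18 macrophage markers was 318, 238 and 417 in knockout replicates 1, 2 and 3, against 83.8, 141 and 284 in wild type replicates 1, 2 and 3. The part of these cells in the fibrinogen values was not tested.

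Of the anticoagulant genes, 7 were tested, with 2 in separate higher groups (28.6%, against 11.5% of all genes tested). Serpinc1, the antithrombin gene and the most abundant of them, had 811, 846 and 867 FPKM in knockout replicates 1, 2 and 3, against 825, 896 and 816 FPKM in wild type replicates 1, 2 and 3. The groups overlapped, and the log2 difference was -0.01 with a 95% interval of -0.28 to 0.27. Serpind1, the heparin cofactor II gene, averaged 190 ± 28.2 FPKM in knockout and 186 ± 15.7 FPKM in wild type (SD, n = 3 each). Proc, the protein C gene, averaged 258 ± 14.9 FPKM in knockout and 235 ± 22.5 FPKM in wild type (SD, n = 3 each). Pros1, the gene of its cofactor protein S, averaged 10.8 ± 1.80 FPKM in knockout and 11.7 ± 0.967 FPKM in wild type (SD, n = 3 each).

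Proz and Serpina10 encode protein Z and the protein Z-dependent protease inhibitor, which together inhibit factor Xa. Proz had 77.7, 100.1 and 96.0 FPKM in knockout replicates 1, 2 and 3, against 71.8, 73.7 and 69.2 FPKM in wild type replicates 1, 2 and 3. Serpina10 had 81.8, 80.5 and 111 FPKM in knockout replicates 1, 2 and 3, against 61.1, 75.5 and 72.4 FPKM in wild type replicates 1, 2 and 3. Both genes had separate groups, with the knockout mean 1.28 times the wild type mean for Proz and 1.31 times for Serpina10. The log2 differences were 0.34 with an SE of 0.13 for Proz and 0.37 with an SE of 0.16 for Serpina10, and limma's adjusted p-values were 0.220 for Proz and 0.275 for Serpina10. When libraries were scaled to equal sums outside the mitochondrial genome, the groups of F10 and of Proz overlapped and those of Serpina10 did not.

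**Figure D3:**
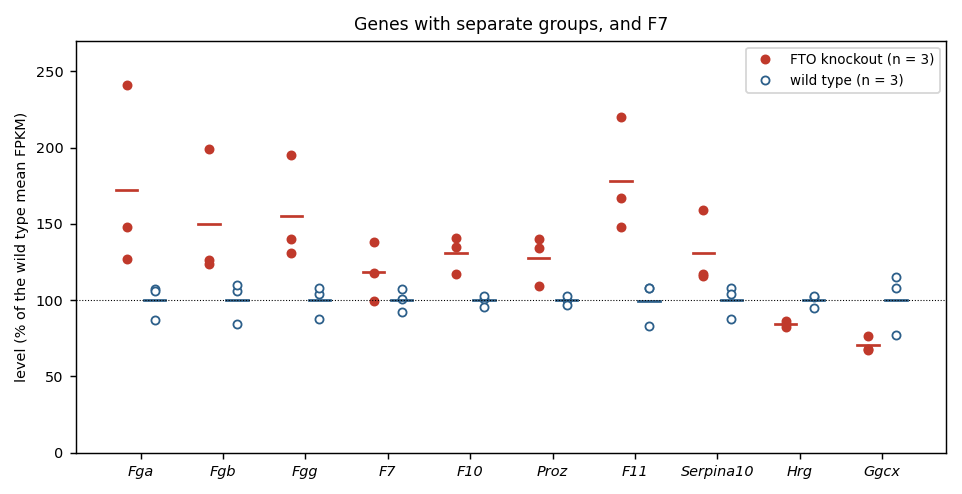
Level of the 9 tested members whose groups did not overlap, and of F7, in percent of the wild type mean FPKM, with each FTO knockout library (filled) left of each wild type library (open) and lines at the group means. The fibrinogen chains of knockout replicate 3 reach 195% to 241%, F11 reaches 148% to 220% in knockout, and Hrg lies at 82.2% to 86.1% in knockout.

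The remaining anticoagulants are made largely by endothelial cells. Tfpi, the tissue factor pathway inhibitor gene, had 2.69, 3.19 and 3.37 FPKM in knockout replicates 1, 2 and 3, against 1.77, 2.13 and 4.06 FPKM in wild type replicates 1, 2 and 3. Thbd, the thrombomodulin gene, had 0.434, 0.441 and 0.409 FPKM in knockout replicates 1, 2 and 3, against 0.457, 0.573 and 0.904 FPKM in wild type replicates 1, 2 and 3. Wild type replicate 3 had the highest value of all libraries for Tfpi, Thbd and F8, while Vwf was highest in knockout replicate 3, at 1.42 FPKM against 1.27 FPKM in wild type replicate 3, and Plat was highest in wild type replicate 2. The summed FPKM of 20 endothelial markers was 139, 163 and 181 in knockout replicates 1, 2 and 3, against 111, 130 and 232 in wild type replicates 1, 2 and 3, and was highest in wild type replicate 3. The groups of Thbd did not overlap, with lower knockout values. Thbd was under 1 FPKM and was not tested, and its values correspond to about 56 to 118 fragments per library. Without wild type replicate 3 the log2 difference of Tfpi was 0.47, against 0.21 with it, and limma's adjusted p was 0.0827. The part of endothelial RNA in these values was not tested.

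**Figure D4:**
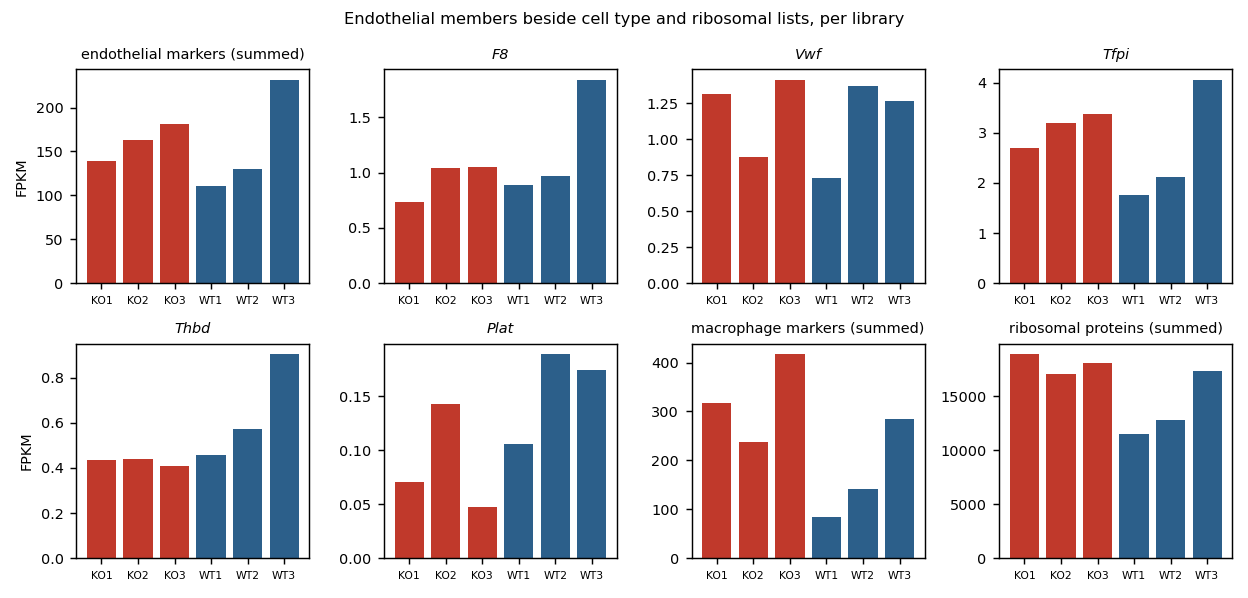
FPKM per library (bars from 0, knockout in red left of wild type in blue) of summed endothelial markers, F8, Vwf, Tfpi, Thbd, Plat, summed macrophage markers and summed ribosomal protein genes. Wild type replicate 3 has the highest endothelial sum (232 FPKM) and the highest F8, Tfpi and Thbd values, whereas Vwf is highest in knockout replicate 3 and Plat in wild type replicate 2.

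Among the fibrinolysis genes made by hepatocytes, Plg, the plasminogen gene, was the most abundant. It had 469, 519 and 539.6 FPKM in knockout replicates 1, 2 and 3, against 572, 547 and 390 FPKM in wild type replicates 1, 2 and 3. The knockout libraries lay inside the wild type range, with a log2 difference of 0.03 that turned to -0.14 without wild type replicate 3. Serpinf2, the gene of the plasmin inhibitor alpha-2-antiplasmin, averaged 267 ± 51.1 FPKM in knockout and 212 ± 35.6 FPKM in wild type (SD, n = 3 each; limma adjusted p 0.413). Cpb2, which encodes a carboxypeptidase that slows fibrinolysis, averaged 209.8 ± 13.99 FPKM in knockout and 199 ± 17.7 FPKM in wild type (SD, n = 3 each). For both, the groups overlapped.

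Hrg was the fibrinolysis gene with separate groups. It encodes histidine-rich glycoprotein, which binds plasminogen and heparin. Hrg had 343, 350.0 and 334 FPKM in knockout replicates 1, 2 and 3, against 415, 385 and 420.5 FPKM in wild type replicates 1, 2 and 3. Its spread was small in both groups, with means of 342 ± 7.76 FPKM in knockout and 407 ± 19.0 FPKM in wild type (SD, n = 3 each). The log2 difference was -0.25 with an SE of 0.11 and a limma adjusted p of 0.299, and the groups overlapped after scaling to equal sums outside the mitochondrial genome and after quantile normalization. Hrg (22951072 to 22961656), Kng2 (22985854 to 23029482) and Kng1 (23057865 to 23082078) are neighbours on chromosome 16.

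The plasminogen activator genes had the lowest levels of this role. Plau, the urokinase gene, had 0.217, 0.337 and 0.289 FPKM in knockout replicates 1, 2 and 3, against 0.408, 0.338 and 0.466 FPKM in wild type replicates 1, 2 and 3, about 18 to 38 fragments per library. Plat, the tissue plasminogen activator gene, had 0.0703, 0.143 and 0.0475 FPKM in knockout replicates 1, 2 and 3, against 0.105, 0.188 and 0.174 FPKM in wild type replicates 1, 2 and 3, about 8 to 28 fragments per library. Neither gene was tested. The groups of Plau did not overlap, but knockout replicate 2 and wild type replicate 2 were almost equal, at about 27 and 29 fragments. The groups of Plat overlapped.

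Both enzymes that serve the vitamin K-dependent factors were tested. Ggcx, which carboxylates these proteins, had 5.12, 5.10 and 5.78 FPKM in knockout replicates 1, 2 and 3, against 8.12, 8.71 and 5.83 FPKM in wild type replicates 1, 2 and 3. The groups were separate, but knockout replicate 3 and wild type replicate 3 nearly touched. The log2 difference was -0.42 with an SE of 0.15 and a limma adjusted p of 0.189. Without wild type replicate 3 it was -0.57 with a limma adjusted p of 0.0342, past the threshold. After scaling to equal sums outside the mitochondrial genome the groups of Ggcx overlapped, and limma's adjusted p was 0.531. Vkorc1, which recycles vitamin K and is the target of warfarin, and whose exons overlap a gene model with no row used here, had 246, 230.2 and 254 FPKM in knockout replicates 1, 2 and 3, against 165, 196 and 248 FPKM in wild type replicates 1, 2 and 3. Wild type replicate 3 reached the knockout level, so the groups overlapped, and without it the log2 difference was 0.43 with a limma adjusted p of 0.0838. The summed FPKM of 35 ribosomal protein genes was likewise highest in replicate 3 among the wild type libraries, at 18870, 17020 and 18080 in knockout replicates 1, 2 and 3, against 11540, 12760 and 17300 in wild type replicates 1, 2 and 3, and its part in the Vkorc1 values was not tested.

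Of the related genes, Hgfac, which encodes an activator of hepatocyte growth factor that resembles factor XII, averaged 56.5 ± 10.4 FPKM in knockout and 67.3 ± 3.62 FPKM in wild type (SD, n = 3 each). Habp2, which encodes a protease that can activate factor VII, averaged 51.2 ± 0.567 FPKM in knockout and 46.5 ± 4.61 FPKM in wild type (SD, n = 3 each). Serpinf1, the gene of pigment epithelium-derived factor and the most abundant of these, had 265, 279 and 276 FPKM in knockout replicates 1, 2 and 3, against 291, 279.7 and 271 FPKM in wild type replicates 1, 2 and 3. The groups overlapped for each of these 3 genes. Serpinf1 had the smallest SE of the tested members, 0.11 on the log2 scale.

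Among the 32 tested members, knockout replicate 1 was the lowest knockout library for 21, and knockout replicate 3 the highest for 19. Wild type replicate 3 was the lowest wild type library for 19 members and the highest for 6, while wild type replicate 2 was the highest for 21. The median coefficient of variation within a group was 12.2% in knockout and 9.23% in wild type.

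Genes that act with these members were described from a second list of 40 receptors, inhibitors and secretory partners. Of the 24 tested, limma called 1 higher, against 1.11% of all genes tested, and 0 lower, against 1.65%. With limma's unadjusted p under 0.05, 2 were higher (8.33%, against 8.65% of all genes) and 5 lower (20.8%, against 10%). Separate groups were held by 2 higher genes (8.33%, against 11.5%) and 4 lower genes (16.7%, against 13%). The called gene was Serpine2, which encodes protease nexin-1, an inhibitor of thrombin and plasminogen activators. Serpine2 rose to 16.1, 11.1 and 14.1 FPKM in knockout replicates 1, 2 and 3, against 6.70, 4.58 and 2.95 FPKM in wild type replicates 1, 2 and 3. This is 2.90 times the wild type mean, with a log2 difference of 1.40, an SE of 0.24 and a limma adjusted p of 0.0286. The call was lost without knockout replicate 1, knockout replicate 3 or wild type replicate 2, where the adjusted p was 0.108, 0.133 and 0.0954, and when low genes were kept in (0.0835).

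The 4 genes with separate lower groups did not pass the test in the main setting. S100a10, which encodes a plasminogen-binding protein, had 126, 153 and 140 FPKM in knockout replicates 1, 2 and 3, against 210.1, 288 and 445 FPKM in wild type replicates 1, 2 and 3 (limma adjusted p 0.0702). Anxa2, which encodes its partner annexin A2, had 4.71, 7.26 and 6.19 FPKM in knockout replicates 1, 2 and 3, against 9.07, 13.8 and 28.8 FPKM in wild type replicates 1, 2 and 3 (limma adjusted p 0.126). Wild type replicate 3 was the highest library for both. Without it, S100a10 was called, with a log2 difference of -0.82 and a limma adjusted p of 0.0350. Plgrkt, a plasminogen receptor gene, and Tfpi2, which encodes a protease inhibitor related to Tfpi, also had separate lower groups, with limma adjusted p-values of 0.166 and 0.0815. S100a10 and Tfpi2 were called after quantile normalization and after scaling to equal sums outside the mitochondrial genome. Across the other settings, limma's adjusted p was 0.0256 to 0.323 for Anxa2 and 0.0421 to 0.4315 for Plgrkt, so both passed in some. Vtn, the vitronectin gene, had separate higher groups, with 975, 873 and 972 FPKM in knockout replicates 1, 2 and 3, against 809, 826 and 669.6 FPKM in wild type replicates 1, 2 and 3.

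Transcription factors known to act on clotting genes in liver were read from a list of 20, of which 19 were tested. Limma called 1 higher, against 1.11% of all genes tested, and 0 lower, against 1.65%. With limma's unadjusted p under 0.05, 4 were higher (21.1%, against 8.65% of all genes) and 1 lower (5.26%, against 10%). Separate groups were held by 3 higher genes (15.8%, against 11.5%) and 1 lower gene (5.26%, against 13%). The called gene was Onecut1, which encodes hepatocyte nuclear factor 6 and rose to 6.93, 3.09 and 4.13 FPKM in knockout replicates 1, 2 and 3, against 1.46, 0.896 and 1.55 FPKM in wild type replicates 1, 2 and 3 (limma adjusted p 0.0391). That call was lost without knockout replicate 1, knockout replicate 3, wild type replicate 1 or wild type replicate 2, with adjusted p-values of 0.0601, 0.138, 0.0644 and 0.130, and when low genes were kept in (0.104). Hnf4a, whose product binds the HNF4 core searched above, had 83.4, 83.9 and 102 FPKM in knockout replicates 1, 2 and 3, against 76.6, 74.3 and 64.6 FPKM in wild type replicates 1, 2 and 3 (limma adjusted p 0.258). Foxa3 had separate higher groups and Cebpb separate lower groups, with limma adjusted p-values of 0.117 and 0.184. Under other settings these were 0.0208 to 0.360 for Foxa3 and 0.164 to 0.445 for Cebpb.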

How the data were processed

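RNA sequencing measured 6 libraries of mouse hepatic tissue. The authors deposited 1 table of FPKM values per gene, and the submitters' processing notes name TopHat2 2.1.0, HTSeq, Cufflinks 2.2.1 and mm10, with no role for each; the sources used here do not give the annotation release. The deposited FPKM values were used unchanged, and no count model was run, since read counts were not recovered. Gene symbols came from GENCODE M21. Genes averaging 1 FPKM or more were tested on log2(FPKM + 1), a scale that understates the change of low genes. Limma 3.58.1 in R 4.3.3 was used, with Benjamini-Hochberg adjustment at 0.05. The procedure was also run on simulated data without library effects. The planted changes there were larger than any tested member's difference, so that run does not bear on differences of this size. Fragment numbers are estimates from the inferred depth and cover counting error only. The members, gene lists and markers were chosen with earlier results of these data known. Values of every library are given for members that were called or had separate groups and for the most abundant member of each role; Fto is named; of the other lists, called genes and up to 6 genes with separate groups. Other genes were named after their values were seen. Alternatives were 3 other scalings, robust moderation, library weights (estimated gene by gene, since the default estimate did not converge), other filters, a pseudocount of 0.1 and each library left out.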

Additional observations from a re-analysis of the deposited data

How the results depend on the processing

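Scaling, filter, moderation, pseudocount, library weights and each library in turn were varied. Calls among all genes were 115 higher and 172 lower. They became 180 higher after quantile normalization, 727 higher and 739 lower with library weights, 93 lower with no filter, and 69 higher and 96 lower at a minimum mean of 5 FPKM. Leaving out 1 library gave 43 to 312 higher and 49 to 240 lower. Members called were 3 higher and 1 lower with library weights, and 0 to 1 lower without 1 library, the 1 being Ggcx without wild type replicate 3. The log2 difference of Fto was -0.97 after scaling to equal sums outside the mitochondrial genome (limma adjusted p 0.0613), -1.004 with no filter (0.0975) and -1.20 to -0.81 without 1 library; at a minimum of 5 FPKM it was not tested. Counts of members with separate groups under other settings were chosen after seeing the data: lower ones were 1 after quantile normalization (12.4% of all genes), 0 after scaling to equal sums (7.7%) and 2 to 6 without 1 library (15% to 19.8%), and higher ones were 7 to 11 without 1 library (12.8% to 22.7%). Of 443 values of members under alternatives, 414 kept direction and side of the threshold, 24 changed sign and 5 newly passed. Sign changes were Serpinc1 after quantile normalization (0.0275) and, after scaling to equal sums, Serpinc1 (0.0410), Serpinf1 (0.0117) and F9 (0.00036). With library weights they were Vwf (-0.0382), Serpind1 (-0.0387), F2 (-0.0237) and Plg (-0.0723). Without 1 library the ranges were -0.0317 to 0.0349 for Serpinc1, -0.114 to 0.0213 for F9, -0.14 to 0.00042 for Kng2, -0.0587 to 0.153 for Serpind1, -0.0518 to 0.172 for F13b, -0.0243 to 0.0604 for F2, -0.0824 to 0.167 for Vwf and -0.14 to 0.14 for Plg. The cause of these changes was not tested. No paired analysis was possible because the replicate numbers follow accession order and pair no samples. Depth limits F13a1, Plat and Plau most.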

Other observations

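Genes beside the clotting loci were read after the members' values were seen. Next to F7, F10 and Proz on chromosome 8, Pcid2 had 4.59, 4.92 and 5.995 FPKM in knockout replicates 1, 2 and 3, against 4.43, 4.03 and 4.04 FPKM in wild type replicates 1, 2 and 3, with separate groups and a limma adjusted p of 0.306. Grtp1 had 15.9, 15.2 and 17.9 FPKM in knockout replicates 1, 2 and 3, against 10.96, 11 and 12.4 FPKM in wild type replicates 1, 2 and 3, also with separate groups and a limma adjusted p of 0.0720. Cul4a and Lamp1 in the same stretch had overlapping groups, with log2 differences of -0.34 and -0.05. Cyp4v3, near F11, overlapped too, at -0.19. Beside the fibrinogen genes, Plrg1 had 10.7, 11.8 and 13.6 FPKM in knockout replicates 1, 2 and 3, against 9.75, 10.7 and 9.98 FPKM in wild type replicates 1, 2 and 3, with a limma adjusted p of 0.365. On their other side, Lrat had 1.17, 1.63 and 1.55 FPKM in knockout replicates 1, 2 and 3. Its wild type replicates 1, 2 and 3 had 1.70, 2.78 and 1.86 FPKM, with a limma adjusted p of 0.307. Both genes had separate groups, Plrg1 higher and Lrat lower in knockout.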
